A study of Mus musculus with 2 samples.

Results

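Atf3, Jun, Ddit3, Chac1, Gadd45a, Cdkn1a, Sprr1a, Gap43 and Sox11 are genes of the injury and regeneration response of neurons, and they were followed by name through a pair of brain sections cut after a controlled cortical impact (CCI), a mechanical model of traumatic brain injury. The genes were taken by name from a list drawn up with earlier results of these data known, and all 9 were found among the 19070 genes of the Visium HD mouse probe panel in both sections. Visium HD captures probe ligation products of fixed, paraffin-embedded tissue on a slide and counts them as unique molecular identifiers (UMIs) in a square grid, here in bins of 16 µm, each of which can hold parts of several cells. The sections came from a male C57Bl6 mouse 3 days after CCI and a male C57Bl6 mouse 28 days after CCI, both aged 3 months per the labels, which name no treatment beside the injury. Per the study's methods CCI was done under ketamine and medetomidine anaesthesia with buprenorphine and local bupivacaine, which both animals thus shared. The impact was placed on the right parietal cortex, and both brains had been perfusion fixed with paraformaldehyde and postfixed before embedding. No sham or uninjured section was analysed here, so the opposite side of the same section served as the reference throughout, and with 1 section per time point no p-value was computed.

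Neurons whose axons or cell bodies are damaged activate stress kinases of the Jun N-terminal kinase pathway, which phosphorylate the transcription factor Jun and induce Atf3, its dimer partner. In peripheral neurons this pair is followed by growth-associated genes such as Sprr1a, Gap43 and Sox11, the group known as regeneration-associated genes, whereas neurons of the central nervous system switch on fewer of them. A further arm, the integrated stress response, runs through the kinase Perk and the factor Atf4 to Ddit3 and Chac1, and damaged DNA acts through p53 on Cdkn1a and Gadd45a. Several of these genes are also used outside neurons, Atf3 and Cdkn1a in macrophages among others, so the levels were set beside markers of other cell types in the same tissue.

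The 250 bases before the transcription start show where stress-responsive factors are known to bind, and they are printed for the 4 members whose window held a match to a motif of the AP-1 or Atf4 kind. Windows came from the RefSeq annotation of GRCm38.p6, which held 9 windows for 8 of the 9 members, and capitals mark the match. The AP-1 motif, bound by Jun dimers, was searched as TGANTCA, the cyclic AMP response element as TGACGTCA, and the amino acid response element, bound by Atf4 with C/EBP partners, as TGATGNAA, all on both strands. Of 32851 windows of the same length, 6.75% held the AP-1 motif, 1.55% the cyclic AMP response element and 3.45% the amino acid response element. The Ddit3 window lies on the plus strand at chr10:127290543-127290792, the Chac1 window on the plus strand at chr2:119350992-119351241, the Atf3 window on the minus strand at chr1:191183334-191183583 and the Sprr1a window on the minus strand at chr3:92485882-92486131.
Atf3: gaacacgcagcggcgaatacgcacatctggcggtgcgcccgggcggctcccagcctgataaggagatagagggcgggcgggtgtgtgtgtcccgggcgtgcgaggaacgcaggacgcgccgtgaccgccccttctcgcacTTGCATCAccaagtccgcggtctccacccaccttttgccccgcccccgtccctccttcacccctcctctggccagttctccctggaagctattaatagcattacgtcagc
Ddit3: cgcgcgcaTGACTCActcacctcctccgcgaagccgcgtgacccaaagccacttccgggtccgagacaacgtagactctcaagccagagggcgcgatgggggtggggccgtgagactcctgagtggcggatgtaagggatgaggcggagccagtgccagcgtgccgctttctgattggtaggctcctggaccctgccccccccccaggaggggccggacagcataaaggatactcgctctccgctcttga
Chac1: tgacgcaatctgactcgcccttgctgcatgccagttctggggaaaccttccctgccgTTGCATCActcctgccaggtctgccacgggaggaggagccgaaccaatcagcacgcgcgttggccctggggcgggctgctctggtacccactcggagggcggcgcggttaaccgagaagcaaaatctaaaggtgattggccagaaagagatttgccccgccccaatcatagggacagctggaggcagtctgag
Sprr1a: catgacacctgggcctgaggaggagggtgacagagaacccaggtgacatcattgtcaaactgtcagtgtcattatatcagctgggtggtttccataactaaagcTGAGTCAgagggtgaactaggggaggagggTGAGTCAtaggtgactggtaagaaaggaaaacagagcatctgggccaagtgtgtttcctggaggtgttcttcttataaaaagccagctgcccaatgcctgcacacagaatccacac
Atf3 and Chac1 held the amino acid response element in its reverse form, Ddit3 held 1 AP-1 match and Sprr1a held 2. The windows of Jun, Gadd45a, Cdkn1a and Sox11 held none of these letters, and a match is a description of the sequence rather than of binding in these brains.

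The 3 day section held 121967 bins and 120615873 UMIs with a median of 836 UMIs per bin, and the 28 day section held 105589 bins and 82422389 UMIs with a median of 596. The lesion zone was outlined by the summed share of 6 phagocyte genes, none of them a member, and covered 8642 bins at 3 days and 13547 at 28 days. At 3 days 33 of its 567 tiles of 64 µm touched the edge of the capture area, so part of the lesion may lie outside it. Injured-side cortex within 500 µm of the zone, called perilesional cortex below, held 2814 and 4147 bins, and it was compared with opposite cortex in the same rows of the array (15142 and 11672 bins). Thalamus held 5414 injured-side and 12407 opposite bins in the 3 day section, and 8002 and 10593 in the 28 day section. Levels are the UMIs of a gene scaled to 1000000 UMIs of its area (CPM), differences are log2 ratios of injured over reference, and square brackets give exact 95% intervals that cover counting error only and leave out the spread between animals. In summed bins, fewer cells of a type and less RNA per cell cannot be told apart.

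Markers of other cells moved with the areas. In the lesion zone the 7 microglia and macrophage markers together summed to 2224 CPM at 3 days, where opposite cortex had 245 CPM, and to 5682 CPM at 28 days, where it had 200 CPM, with all 7 past 2-fold at both times. High levels of these markers in the zone follow in part from its outline, which was drawn by phagocyte genes. The 5 oligodendrocyte markers summed to 11014 against 1923 CPM at 3 days and to 8329 against 2317 CPM at 28 days with 5 of 5 past 2-fold, and 4540 of 8642 zone bins and 6888 of 13547 scored as white matter, whereas the reference is cortex. Fibroblast (5 of 5 at both times), choroid plexus (4 of 4 at both times), oligodendrocyte precursor (4 and 3 of 4), mural (3 and 4 of 5), endothelial (4 and 2 of 5) and neutrophil markers (3 of 3 tested at both times) were also past 2-fold higher in the zone. Of 6 astrocyte markers 4 were higher and 1 lower at 3 days and 5 were higher at 28 days, and of 5 neuroblast markers 3 were higher and 2 lower at both times. The 7 neuronal markers together stood at 2697 CPM against 9327 at 3 days and at 3132 against 10407 at 28 days, with 5 and 6 of them lower past 2-fold. Excitatory neuron markers stood at 654 CPM against 2879 at 3 days, with 4 of 4 lower. At 28 days they stood at 558 against 2740, with 3 of 4 lower and 1 higher. Inhibitory neuron markers stood at 264 CPM against 279 and at 194 against 283, with 0 of 3 past 2-fold at both times. Perilesional cortex kept most of its neuronal signal, at 8028 CPM against 9327 at 3 days and 8410 against 10407 at 28 days, with no neuronal marker past 2-fold, while its microglia markers stood at 944 CPM and 583 CPM with all 7 past 2-fold. Fibroblast markers stood there at 209 CPM against 35.8 at 3 days with 5 of 5 higher and at 91.7 against 21.4 CPM at 28 days with 4 of 4 tested higher. At 3 days 4 of 4 oligodendrocyte precursor markers, 3 of 6 astrocyte, 3 of 5 endothelial, 3 of 5 mural and 1 of 5 oligodendrocyte markers were also higher, and at 28 days 3 of 5 mural and 2 of 6 astrocyte markers. The 1 neutrophil marker tested was higher at both times. Of those tested at 3 days, 1 of 3 choroid plexus markers was higher and 1 of 4 neuroblast markers lower. What these cells contribute to the member values below was not tested, beyond the sorting of bins by markers given further on.

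**Figure D1:**
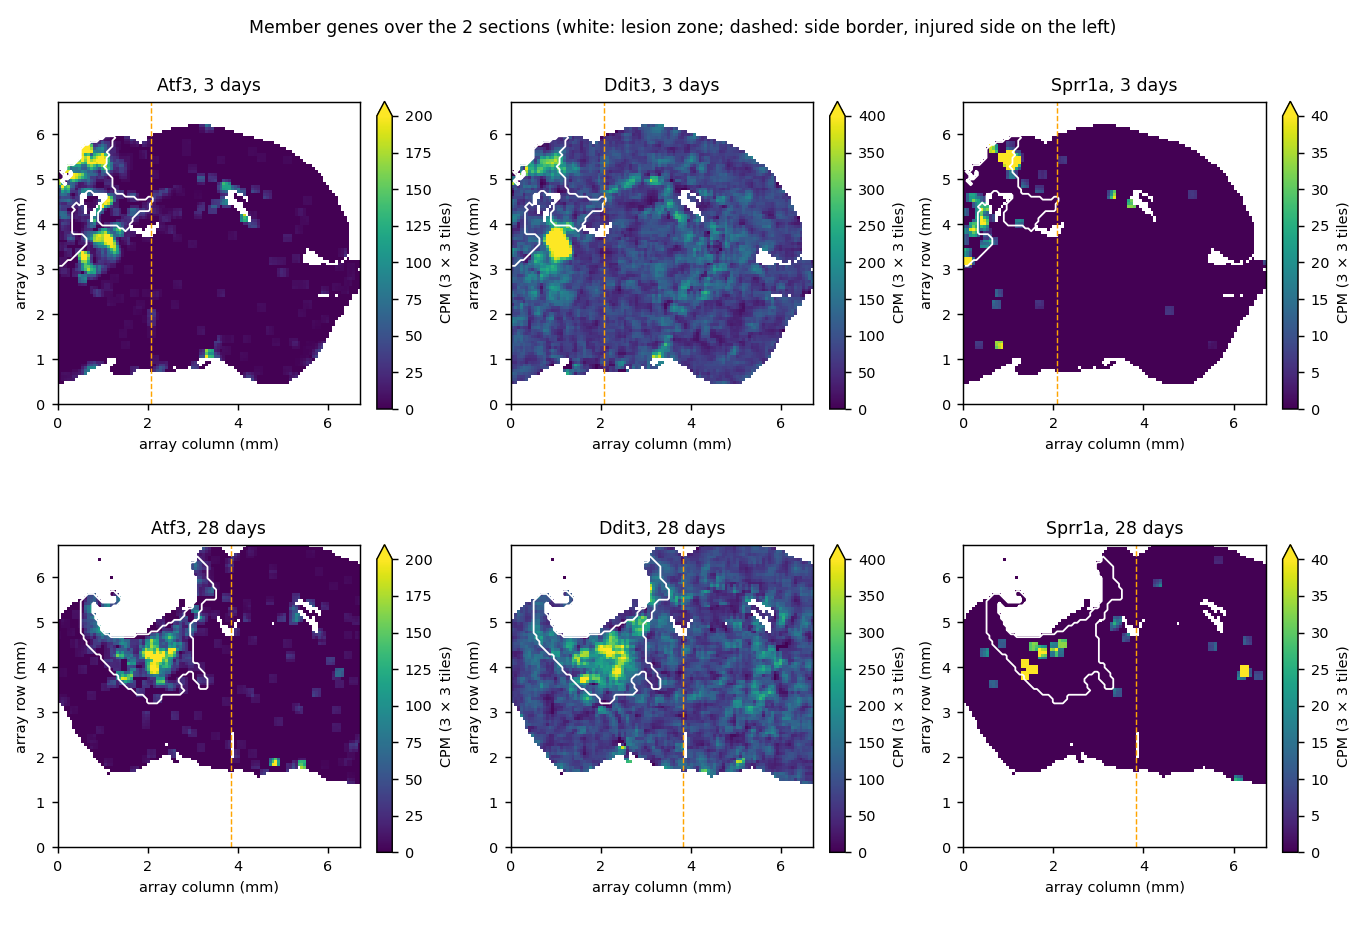
Levels of Atf3, Ddit3 and Sprr1a (CPM over windows of 3 by 3 tiles, colour scale) across the 3 day and 28 day sections, with the injured side on the left of the dashed border and the lesion zone outlined in white. Atf3 was concentrated in parts of the zone at both times, and at 3 days Atf3 and Ddit3 were also high in a patch just below it.

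Atf3 and Sprr1a were the members with the largest ratios in the lesion zone. At 3 days Atf3 had 273 UMIs there (51.4 CPM) against 14 UMIs (0.814 CPM) in the larger opposite cortex, a log2 ratio of 5.93 [5.21, 6.87]. The zone at 28 days held 385 Atf3 UMIs (53.8 CPM) against 11 (0.756 CPM), a log2 ratio of 6.09 [5.30, 7.17], so the levels at both times lay close to each other. The zone had 4.41% of all UMIs but 30.7% of the Atf3 UMIs of the section at 3 days, and 8.70% of all UMIs but 69.5% of the Atf3 UMIs at 28 days. Its partner Jun, expressed in intact cortex as well, stood at 265 CPM against 80.5 at 3 days, a log2 ratio of 1.72 [1.61, 1.82], and at 160 CPM against 65.4 at 28 days, a log2 ratio of 1.29 [1.16, 1.41]. Without scaling to the total Jun stood at 0.83 and 0.05, under 2-fold at both times.

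Among the members, 6 of 9 were at least 2-fold higher in the zone at 3 days and 1 was lower, where 25.9% of the 13734 genes tested were higher and 10.7% lower. At 28 days 5 of 9 were higher and none lower, where 24.2% of all genes were higher and 11.2% lower. Counted per bin without scaling to the total, the split was 3 higher and 1 lower at 3 days and 2 higher and 2 lower at 28 days, since zone bins held 614 and 528 UMIs on average against 1135 and 1247 in opposite cortex.

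The stress-response pair was Ddit3, which codes for the factor CHOP, and Chac1, which codes for an enzyme that breaks down glutathione. Neither reached 2-fold higher in the zone at either time. Ddit3 stood at 115 CPM against 84.2 at 3 days, a log2 ratio of 0.46 [0.32, 0.59], and at 154 CPM against 84.2 at 28 days, a log2 ratio of 0.87 [0.75, 0.99], and both values turned negative without scaling to the total (-0.43 and -0.37). Chac1 was the member past 2-fold lower at 3 days, with 37 UMIs and 6.97 CPM against 15.9, a log2 ratio of -1.17 [-1.72, -0.69]. Against the whole opposite side no member was past 2-fold lower at 3 days, beside 10.8% of all genes lower. Over all settings the 3 day log2 ratio of Chac1 ran from -2.06 to -0.87. At 28 days Chac1 had 104 UMIs and 14.5 CPM against 17.0, a log2 ratio of -0.22 [-0.57, 0.11], and without scaling to the total it stood past 2-fold lower, at -1.46.

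The growth-arrest genes had larger ratios in the zone at 3 days than at 28 days, a difference between animals that was not tested. Cdkn1a, which codes for the cell cycle inhibitor p21, stood at 105 CPM against 22.6 at 3 days, a log2 ratio of 2.21 [2.02, 2.40], and at 35.5 CPM against 20.1 at 28 days, a log2 ratio of 0.82 [0.58, 1.07]. Gadd45a, a DNA damage-inducible regulator of stress kinases, stood at 30.7 CPM against 11.4 at 3 days, a log2 ratio of 1.43 [1.12, 1.74], and at 18.9 CPM against 8.73 at 28 days, a log2 ratio of 1.11 [0.75, 1.47]. Without scaling to the total Gadd45a stood at 0.54 at 3 days, under 2-fold, and Cdkn1a at 1.32, and the 28 day values of both turned negative, to -0.42 for Cdkn1a and -0.13 for Gadd45a.

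Among the growth-associated genes, Sprr1a, a small proline-rich protein that promotes axon outgrowth, lay almost wholly on the injured side at 3 days. It had 76 UMIs in the zone (14.3 CPM) against 1 UMI in opposite cortex, a log2 ratio of 7.37 [5.42, 13.27]. The zone held 53.9% of its UMIs in the section, and 134 of all 141 lay on the injured side. At 28 days it had 25 UMIs in 18 bins of the zone (3.496 CPM) against 2 UMIs, a log2 ratio of 4.38 [2.66, 7.79]. Its total over the section was then 53 UMIs, of which 33 lay on the injured side.

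Sox11, a transcription factor of immature and regenerating neurons, was higher in the zone at both times. It stood at 38.6 CPM against 14.7 at 3 days, a log2 ratio of 1.40 [1.12, 1.67], and at 21.5 CPM against 8.87 at 28 days, a log2 ratio of 1.28 [0.93, 1.63]. Without scaling to the total these values were 0.51 and 0.04, under 2-fold at both times. Gap43, the growth cone phosphoprotein that many intact neurons also express, lay within 2-fold when scaled to the total. It stood at 290 CPM against 234 at 3 days, a log2 ratio of 0.31 [0.22, 0.39] that became -0.04 with edgeR's TMM scaling, -0.58 without scaling and -0.27 against all opposite cortex. It stood at 240 CPM against 298 at 28 days, a log2 ratio of -0.31 [-0.40, -0.23] that became -1.55 without scaling, past 2-fold lower.

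**Figure D2:**
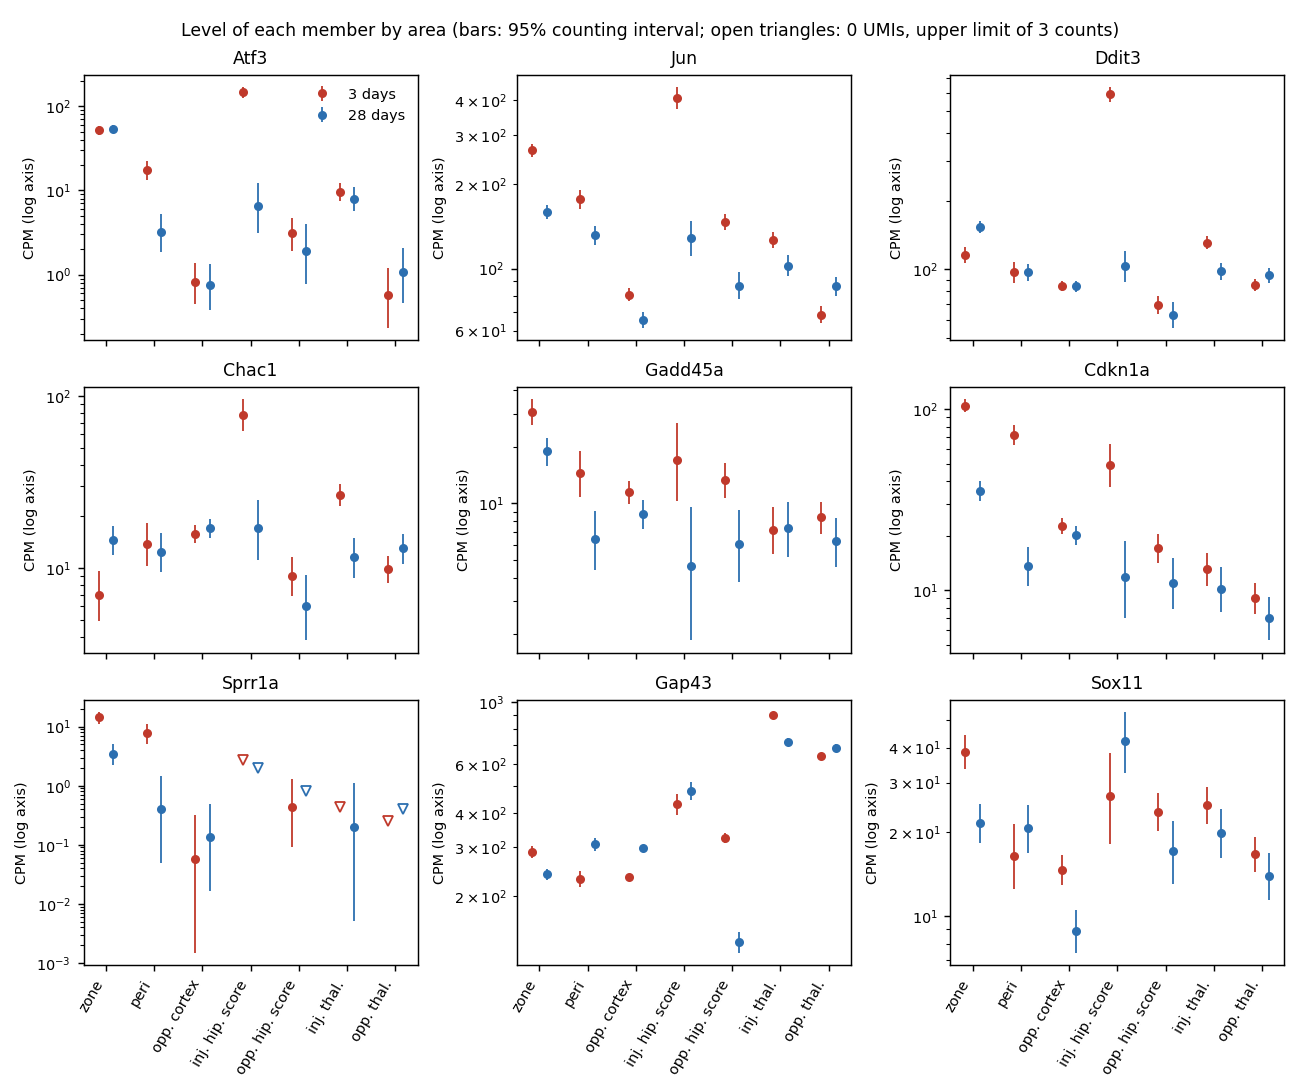
Level of each member (CPM, log axis) in 7 areas of the 3 day (red) and 28 day (blue) sections, with exact 95% counting intervals as bars and open triangles for areas with 0 UMIs, drawn at the limit that 3 counts would give. Atf3 is high in the lesion zone at both times and highest in the hippocampus-score patch at 3 days.

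Lists of related genes were counted in the zone in the same way, beside 25.9% of all genes higher and 10.7% lower at 3 days and 24.2% and 11.2% at 28 days. Of 32 further regeneration-associated genes, 18 were at least 2-fold higher and 5 lower at 3 days, with a median log2 ratio of 1.26 against 0.21 over all genes tested, and 16 were higher and 9 lower at 28 days, with a median of 0.93 against 0.09. The largest at 3 days were Cd44, a hyaluronan receptor, at a log2 ratio of 6.48, Socs3, an inhibitor of cytokine signalling, at 5.61, Ecel1, a protease induced in injured neurons, at 5.51 and Lgals1, galectin-1, at 5.49. Of these Cd44, Socs3 and Lgals1 are also known from reactive glia and macrophages. Of 26 genes of the integrated stress response, 12 were higher and 1 lower at 3 days and 11 higher at 28 days, among them Cebpb (2.37 and 1.88) and Nupr1 (2.10 and 2.53), a pair of stress-induced transcriptional regulators. The p53 list, with 7 of 21 higher and 1 lower at 3 days and 6 higher and 2 lower at 28 days, lay near the share of all genes, and was led by Gadd45g (3.51 and 2.85) and the death receptor Fas (2.77 and 3.49). The AP-1 and stress kinase list had 5 higher and 7 lower of 20 at 3 days and 2 higher and 4 lower of 19 at 28 days, a count of higher genes no larger than the share of all genes, with the small Maf protein Maff at 3.64 and 3.86 and the neuronal kinase Mapk10 at -1.85 and -1.49.

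Within the zone, Atf3 differed little between the depth bands at 3 days and was higher further inside at 28 days. At 3 days it stood at 52.0 CPM within 250 µm of the edge (217 UMIs) and at 49.2 CPM from there to 500 µm (56 UMIs), while the smaller cortical part of these bands had 74.0 CPM (68 UMIs) and 158 CPM (19 UMIs). Tiles of the zone with a cortex score held it at 83.7 CPM at 3 days and 36.9 CPM at 28 days, and those with a white matter score at 30.9 CPM and 56.4 CPM. At 28 days it stood at 37.6 CPM within 250 µm of the edge, at 71.5 CPM from there to 500 µm and at 178 CPM deeper than 500 µm (87 UMIs). The deepest band at 28 days held Ddit3 at 248 CPM, beside 233 CPM in the next band and 124 CPM within 250 µm of the edge, and 0 Sprr1a UMIs, which allows up to 6.15 CPM. Sprr1a sat between 250 and 500 µm inside the edge, where 16 of its 25 zone UMIs lay.

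The comparison of perilesional cortex asked whether the response reached cortex that still held neurons around the lesion. At 3 days Atf3 had 61 UMIs there (17.3 CPM) against 14 (0.814 CPM) in opposite cortex, a log2 ratio of 4.37 [3.55, 5.36]. Those 61 UMIs came from 47 bins in 37 tiles, with up to 7 UMIs in 1 bin. Jun stood at 177 CPM against 80.5, a log2 ratio of 1.13 [0.99, 1.27], and had a UMI in 18.7% of the perilesional bins against 8.45% of opposite cortex bins. Cdkn1a stood at 72.4 CPM against 22.6, a log2 ratio of 1.68 [1.44, 1.91].

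Sprr1a had 27 UMIs in perilesional cortex (7.66 CPM) against 1 UMI, a log2 ratio of 6.48 [4.44, 12.40]. All 27 lay in 19 bins of 11 tiles within 250 µm of the zone, and cortex from 250 to 500 µm away held 0 UMIs, which allows up to 1.42 CPM. Atf3 fell off more slowly, from 22.6 CPM within 250 µm to 13.8 CPM from 250 to 500 µm and 7.93 CPM from 500 to 1000 µm. Cdkn1a followed from 102 to 52.2 and 39.6 CPM over the same bands, whereas Ddit3 stayed between 92.6 and 109 CPM.

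The remaining members did not pass 2-fold in perilesional cortex at 3 days. Ddit3 stood at 97.0 CPM against 84.2 (0.21 [0.03, 0.38]), Chac1 at 13.9 against 15.9 (-0.18 [-0.66, 0.25]), Gadd45a at 14.5 against 11.4 (0.35 [-0.13, 0.80]), Sox11 at 16.5 against 14.7 (0.18 [-0.27, 0.58]) and Gap43 at 231 against 234 (-0.02 [-0.13, 0.09]). The 4 members past 2-fold of 9 stood beside 10.9% of all genes. Here and in the areas that follow, the members past 2-fold were all higher, apart from Gap43 against distant cortex and Sprr1a in tissue outside the zone, cortex, hippocampus and thalamus, both lower at 28 days. The share of all genes beside them counts the genes at least 2-fold higher. Against opposite cortex at the mirrored position the count was 3 of 9 beside 8.76%, with Atf3 at 3.44, Cdkn1a at 1.16 and Jun at 0.95, and Sprr1a at least 5.56-fold higher since that reference held 0 of its UMIs. With the zone drawn at the 95th percentile, 2 members were past 2-fold, Atf3 and Cdkn1a, beside 8.26% of all genes, and the cause was not tested. Deep-layer tiles made up 46.6% of perilesional cortex, 38.5% of opposite cortex and 69.2% of opposite cortex at the mirrored position. The part of layer makeup in these ratios was not tested.

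**Figure D3:**
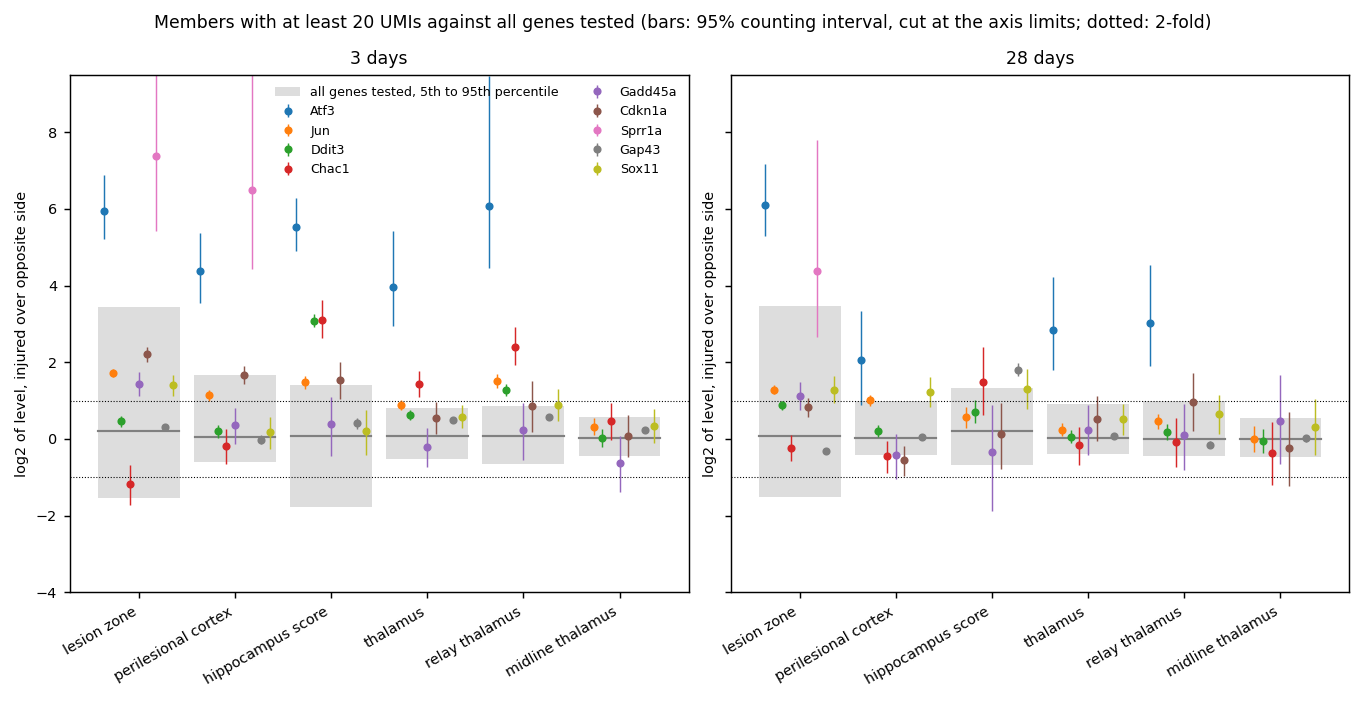
Log2 ratio of injured over reference area for each member (points, with exact 95% counting intervals, cut at the axis limits, 1 colour per member) in 6 comparisons at 3 days (left panel) and 28 days (right panel), over the 5th to 95th percentile of all genes tested (grey). Atf3 lies above the grey band in the zone, in perilesional cortex and in the relay thalamus at 3 days.

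In the 28 day section the perilesional cortex lay closer to the opposite cortex. Atf3 had 16 UMIs there in 16 bins (3.21 CPM) against 11 (0.756 CPM), a log2 ratio of 2.07 [0.89, 3.34], and Sprr1a had 2 UMIs on either side and could not be compared. Jun stood at 131 CPM against 65.4, a log2 ratio of 1.01 [0.86, 1.15]. It was under 2-fold with TMM scaling (0.94) and without scaling (0.95). Sox11 stood at 20.7 CPM against 8.87, a log2 ratio of 1.22 [0.83, 1.61], but against injured-side cortex at least 1000 µm from the zone its log2 ratio was -0.53. The same distant reference gave 0.07 for Jun, -1.34 [-1.43, -1.25] for Gap43 and 0.64 [0.01, 1.32] for Chac1. Atf3 (1.24) and Gap43 were thus the members past 2-fold against it, Gap43 being lower, beside 5.58% of all genes higher and 3.01% lower. Gap43 lay within 2-fold of opposite cortex, as given below, and how distant cortex differs from perilesional cortex was not tested. Against opposite cortex Atf3, Jun and Sox11 were the 3 of 8 members past 2-fold, beside 4.97% of all genes.

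Cdkn1a turned at 28 days, to 13.6 CPM against 20.1 in opposite cortex, a log2 ratio of -0.55 [-0.96, -0.17]. Chac1 at -0.45 [-0.88, -0.05], Gadd45a at -0.43 [-1.05, 0.13], Ddit3 at 0.20 [0.05, 0.36] and Gap43 at 308 CPM against 298 (0.05 [-0.04, 0.13]) lay within 2-fold. Middle-layer tiles made up 60.3% of perilesional cortex and 31.0% of opposite cortex at this time, and their part in these values was not tested either. Opposite cortex at the mirrored position held 63.2% of them, and against it 2 of 7 members were at least 2-fold higher, beside 4.25% of all genes.

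The related lists in perilesional cortex are read beside 10.9% of all genes higher at 3 days and 4.97% at 28 days, and no difference between the sections was tested. The regeneration-associated list had 12 of 31 tested genes higher at 3 days and 5 of 29 at 28 days, with none lower, and Ecel1 led it at both times, at 26.7 CPM against 0.873 (log2 ratio 4.89) and at 7.42 CPM against 1.03 (2.82). At 3 days the AP-1 list had 4 of 19 higher, with the immediate early genes Fosb at 3.04, Fos at 1.66 and Junb at 1.15, and at 28 days 0 of 19. The integrated stress response list had 6 of 25 and then 2 of 24 higher, among them the cystine transporter Slc7a11 (1.72 and 1.07) and the cysteine-forming enzyme Cth (1.17 and 1.26). The p53 list had 3 of 20 and then 0 of 20, with Gadd45g at 2.71 and the antiproliferative gene Btg2 at 1.38 at 3 days.

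**Figure D4:**
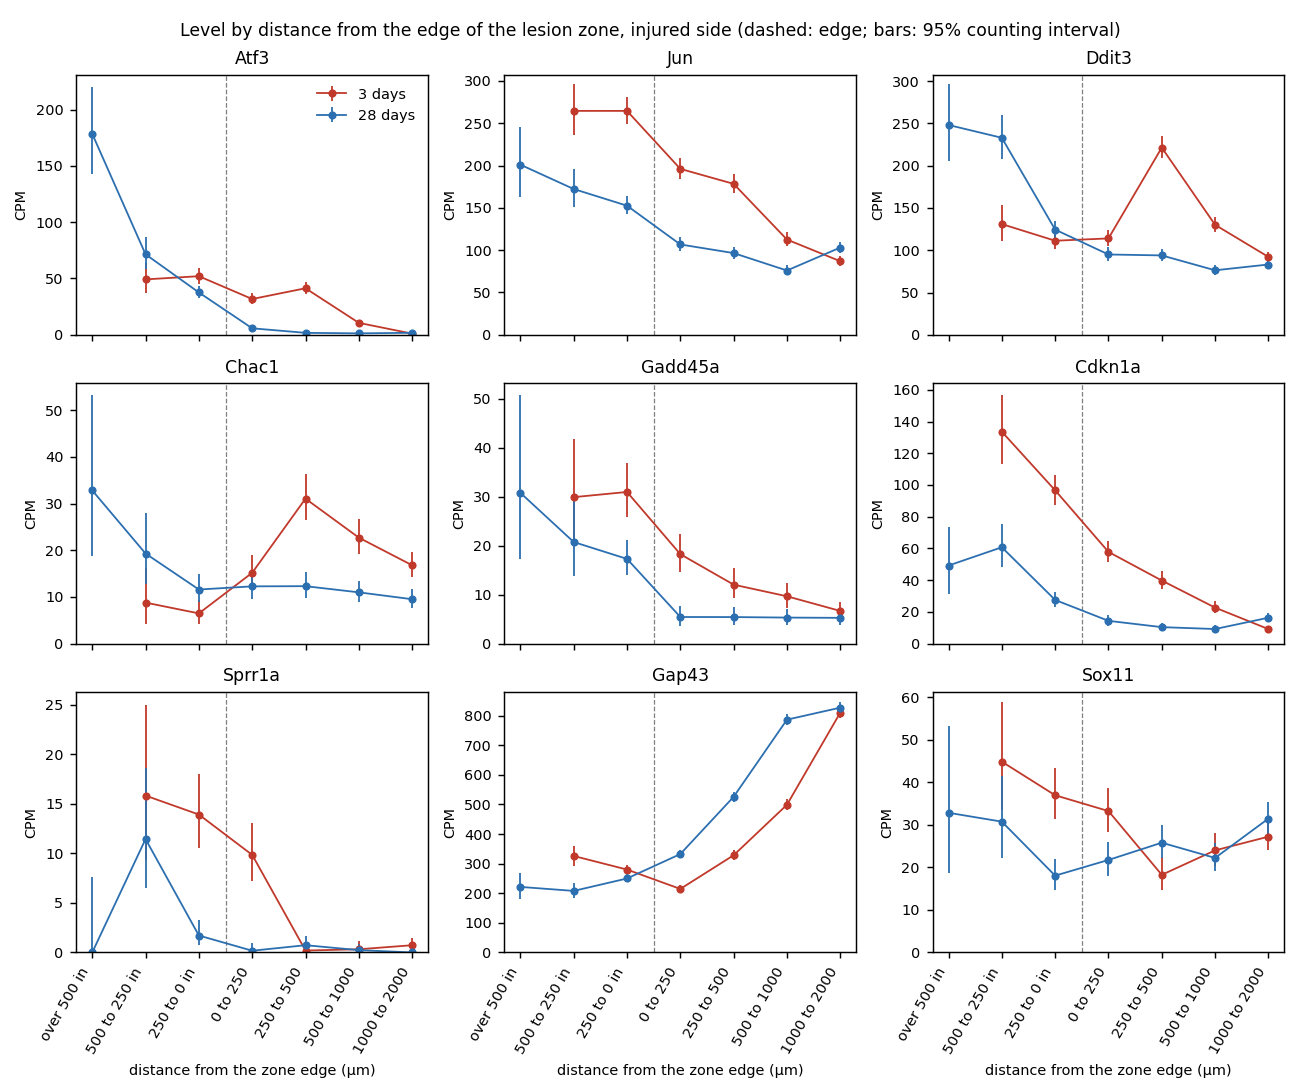
Level of each member (CPM) over all injured-side tissue in bands of distance from the lesion zone edge. Bands inside the zone are marked "in". Red is 3 days and blue 28 days, with exact 95% counting intervals. Ddit3 and Chac1 peak at 250 to 500 µm outside the zone at 3 days, at 221 and 31.0 CPM. These bands join different tissues, among them the hippocampus-score patch, a median of 256 µm from the zone. In the cortical bands given above Ddit3 changed little.

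At 3 days Atf3, Jun, Ddit3 and Chac1 had their highest levels of the areas compared beneath the lesion, in tissue that carried the wrong regional label. The marker rule put 928 injured-side bins into the hippocampus, a median of 256 µm from the zone and 32 of them inside it. But these bins held the thalamic genes Tcf7l2 at 356 CPM and Slc17a6 at 361 CPM, against 13 CPM of the hippocampal gene Hpca and 0 UMIs of Neurod6. Opposite hippocampus held Hpca at 1664 CPM and Neurod6 at 395 CPM. C1ql2, a marker of dentate granule cells that some thalamic neurons also express, was among the hippocampal markers scored. Its part in the label was not tested, and 51.7% of the bins also belonged to tiles rich in C1ql2 and Tcf7l2. The 928 bins are therefore called the hippocampus-score patch here and were compared with opposite thalamus as well as opposite hippocampus.

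Atf3 reached its highest level of the areas compared in this patch, with 163 UMIs and 146 CPM, against 7 UMIs (0.580 CPM) in opposite thalamus, a log2 ratio of 7.88 [6.90, 9.31], and against 21 UMIs (3.10 CPM) in opposite hippocampus, a log2 ratio of 5.53 [4.90, 6.29]. The patch made up 0.777% of the bins of the section and held 18.3% of its Atf3 UMIs, in 13.4% of its bins. Ddit3 stood at 592 CPM against 85.5 in opposite thalamus, a log2 ratio of 2.79 [2.65, 2.93], and against 69.9 in opposite hippocampus, a log2 ratio of 3.08 [2.91, 3.26], with a UMI in 37.9% of bins. Chac1, lower than the reference in the zone, stood here at 78.1 CPM against 9.87 and 9.01, log2 ratios of 2.99 [2.57, 3.39] and 3.11 [2.63, 3.61]. The stress-response pair and Atf3 were thus high in the same patch.

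Jun in the patch stood at 407 CPM against 68.4 in opposite thalamus, a log2 ratio of 2.57 [2.41, 2.74], and Cdkn1a at 49.4 CPM against 9.04, a log2 ratio of 2.46 [1.95, 2.93]. Gadd45a had 19 UMIs, a log2 ratio of 1.06 [0.24, 1.74]. Of the growth-associated genes, Gap43 stood at 429 CPM against 640 (-0.58 [-0.71, -0.44]), Sox11 at 26.9 CPM against 16.7 (0.71 [0.09, 1.25]), under 2-fold against this reference. Sprr1a stood at 0 UMIs in 928 bins, which allows up to 2.69 CPM. Against opposite hippocampus 5 of 8 members were past 2-fold beside 9.36% of all genes, and against opposite thalamus 6 of 8 beside 9.55%.

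The patch was also set against opposite tiles rich in C1ql2 and Tcf7l2, though whether they match the patch in tissue was not tested. Against these Atf3 stood at 5.81 [3.89, 11.70], Ddit3 at 3.30 [2.82, 3.86], Chac1 at 3.03 [1.88, 4.82], Jun at 2.56 [2.11, 3.09] and Sox11 at 1.80 [0.44, 3.91], 5 of 8 members beside 5.4% of all genes, while Cdkn1a stood at 0.79 [-0.003, 1.72], under 2-fold. Changing the injured area as well, to tiles rich in both genes on either side, gave smaller values. Tiles rich in C1ql2 and Tcf7l2 held 800 bins on the injured side and 544 on the opposite side at 3 days. There Atf3 had 74 UMIs (74.7 CPM) against 1 UMI (1.75 CPM), a log2 ratio of 4.84 [2.90, 10.74], Ddit3 stood at 229 CPM against 59.4 (1.93 [1.42, 2.51]), Chac1 at 43.4 against 8.73 (2.19 [0.98, 4.01]) and Jun at 253 against 68.1 (1.88 [1.41, 2.42]). With Sox11 at 1.40 [-0.05, 3.54], 5 of 7 members were past 2-fold beside 2.73% of all genes. Cdkn1a, past 2-fold in the patch by hippocampus score, stood here at 39.4 against 27.9 CPM (0.47 [-0.38, 1.43]), and Gap43 at 410 against 419 CPM. The neuronal markers of these tiles summed to 11428 CPM against 11258, and the microglia markers to 603 against 223 CPM with 6 of 7 past 2-fold. In the patch by hippocampus score the neuronal markers stood at 9159 CPM against 9048 in opposite thalamus. The microglia markers stood at 833 against 242 with 7 of 7 past 2-fold and the astrocyte markers at 4319 against 1890. Fibroblast markers stood at 146 against 37.5 CPM and endothelial markers at 319 against 179. Excitatory neuron markers stood at 765 against 1227 CPM and oligodendrocyte markers at 4267 against 4675. The part of these cells in the member levels was not tested. At 28 days the injured side held 288 bins of such tiles and the opposite side none. In those bins 5 of 7 members were at least 2-fold higher than in opposite thalamus, beside 15.1% of all genes. Of these, Gadd45a had 2 UMIs there, Cdkn1a 5 and Sox11 5, so their ratios rest on few counts. Chac1 had 12 UMIs and Ddit3 35. Tissue outside the zone, cortex, hippocampus and thalamus had 2 of 9 members at least 2-fold higher at 3 days, Atf3 and Sprr1a, beside 2.64% of all genes.

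Of the integrated stress response list, 13 of 25 tested genes were at least 2-fold higher in the patch than in opposite thalamus and none lower, beside 9.55% of all genes higher, with a median log2 ratio of 1.15 against 0.12 over all genes. Against opposite hippocampus 10 of 24 were higher and 2 lower, beside 9.36% higher, and against opposite tiles rich in C1ql2 and Tcf7l2 9 of 21 were higher and 1 lower, beside 5.4%, with a median of 0.83. With such tiles on both sides 3 of 20 were higher and 1 lower, beside 2.73%, with a median of 0.32. Named against opposite hippocampus, Eif2ak3, the gene of the kinase Perk, stood at 106 CPM against 19.5 (2.44 [2.07, 2.81]), the stress sensor Sesn2 at 60.1 against 13.2 (2.20), the mitochondrial folate enzyme Mthfd2 at 72.7 against 15.96 (2.19) and the ER protein gene Herpud1 at 228 against 66.7 (1.78). Against opposite thalamus these 4 stood at 1.81, 2.46, 1.45 and 0.97, the last under 2-fold.

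The other lists moved in both directions against opposite hippocampus, a reference of another tissue. The regeneration list had 5 higher and 11 lower of 32, where 9.36% of all genes were higher and 10.1% lower. The TWEAK receptor Tnfrsf12a stood at 2.92, Lgals1 at -3.13 and Nts at 0 UMIs in the patch. The p53 list had 5 higher and 2 lower of 19, with Plk2 at -2.97, Psrc1 at -2.73, Bbc3, the gene of the death factor PUMA, at 1.96 and Mdm2 at 1.63. The AP-1 and stress kinase list had 1 higher and 2 lower of 19, with the phosphatase gene Dusp1 at 3.22 and Junb at -1.76. Against opposite thalamus the counts were 10 of 30 higher for the regeneration list, 8 of 19 for the p53 list and 3 of 18 for the AP-1 list with none lower, beside 9.55% of all genes, and Tnfrsf12a stood at 3.85, Bbc3 at 3.19, Mdm2 at 1.89 and Dusp1 at 1.80.

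Thalamus below means the tiles that scored as thalamus, so the hippocampus-score patch with its thalamic genes is left out. At 3 days these tiles lay away from the zone, with none of their bins inside it and a median distance of 842 µm. Atf3 had 67 UMIs there (9.66 CPM) against 7 (0.580 CPM), a log2 ratio of 3.97 [2.93, 5.43], and Chac1 stood at 26.7 CPM against 9.87, a log2 ratio of 1.43 [1.09, 1.78]. These were the 2 of 8 members past 2-fold, beside 3.31% of all genes. Counted per bin without scaling to the total, 4 members were past 2-fold, beside 8.77% of all genes. Jun stood at 126 CPM against 68.4 (0.89 [0.75, 1.02]), Ddit3 at 131 against 85.5 (0.61 [0.48, 0.74]) and Gap43 at 902 against 640 (0.50 [0.45, 0.54]), and Sprr1a had 0 UMIs on both sides.

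Most of the thalamic Atf3 UMIs lay in tiles with relay markers. In relay tiles (2160 injured-side and 8463 opposite bins) Atf3 had 58 of its 67 thalamic UMIs, at 22.2 CPM against 0.265 CPM from 2 UMIs, a log2 ratio of 6.08 [4.47, 9.47]. Chac1 stood there at 37.5 CPM against 7.02 (2.41 [1.92, 2.93]), Jun at 196 against 68.7 (1.51 [1.33, 1.69]) and Ddit3 at 226 against 93.7 (1.27 [1.11, 1.43]), so that 4 of 8 members were past 2-fold beside 3.69% of all genes. In midline tiles (3254 injured-side and 3944 opposite bins) 0 of 7 were past 2-fold beside 1.92%, with Atf3 at 2.08 CPM from 9 UMIs against 1.11 and Jun at 0.32 on the log2 scale. Relay tiles thus made up a smaller part of the injured than of the opposite thalamus. What this adds to the ratios of the whole thalamus was not tested. Prkcd, a marker of sensory relay nuclei, stood in relay tiles at 375 CPM against 1861. Whether relay tiles of both sides held the same nuclei in equal parts was not tested. Microglia markers in relay tiles summed to 480 CPM against 231 with 4 of 7 past 2-fold, and in midline tiles to 292 against 261 with 0 of 7. Few related genes moved in the whole thalamus: 1 of 25 stress-response genes (Eif4ebp1, 1.57), 1 of 30 regeneration genes higher (Anxa2, 1.08) and 1 lower (Npy, -2.74), Bbc3 at 1.28 and Gadd45b at -1.23 of 19 tested p53 genes, and 0 of 18 AP-1 genes.

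In the 28 day section fewer members were past 2-fold in the thalamus, and the difference between the sections was not tested. Atf3 had 40 UMIs (7.96 CPM) against 8 (1.06 CPM), a log2 ratio of 2.84 [1.79, 4.21], and was the 1 of 8 members past 2-fold beside 4.38% of all genes. Of those 40 UMIs 30 lay in the 29.0% of bins that the lesion zone had reached. Without zone tiles Atf3 fell under 20 UMIs over both sides and no member was past 2-fold, beside 2.22% of all genes higher. Chac1 stood at 11.5 CPM against 13.0 (-0.17 [-0.67, 0.31]), Ddit3 at 97.9 against 94.03 (0.06 [-0.11, 0.23]) and Jun at 103 against 86.6 (0.24 [0.07, 0.41]). Microglia markers stood at 1407 CPM against 198 with 7 of 7 past 2-fold and neuronal markers at 7681 against 8993. Of 6 astrocyte markers 2 were higher (sum 3273 against 1945 CPM), and the 1 neutrophil marker tested was higher. All 3 inhibitory neuron markers were lower (sum 23.7 against 76.0 CPM), and in the 3 day thalamus 2 of 3 were lower (sum 35.2 against 97.4 CPM). The part of these cells was not tested. Relay tiles gave Atf3 as the 1 of 8 past 2-fold (31 UMIs, 10.97 CPM against 1.28, log2 ratio 3.03) beside 5% of all genes, and midline tiles 0 of 7 beside 0.961%. Of the related lists in the whole thalamus at 28 days, 4 of 29 regeneration genes were higher and 1 lower, with Npy at -1.50 and Ecel1 at 1.45, 1 of 23 stress-response genes was higher (Eif4ebp1, 1.08), 1 of 19 p53 genes (Bbc3, 1.26) and 0 of 18 AP-1 genes.

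Hippocampal tissue proper could be followed on the injured side only in part, and mainly at 28 days. At 3 days the mirror image of the opposite dorsal hippocampus, 3045 bins, lay to 67.8% inside the lesion zone, and its neuronal markers stood at 2076 CPM against 8923. There Atf3 stood at 28.1 CPM against 4.36, a log2 ratio of 2.66 [1.91, 3.53], and Cdkn1a at 1.15, Gadd45a at 1.06 and Gap43 at 1.03 on the log2 scale, 4 of 8 members beside 21.1% of all genes, while Chac1 stood at -0.56. At 28 days the marker rule found 2236 bins, of which 915 were dorsal tiles with more Hpca than Tcf7l2. On the opposite side 3330 of 3826 bins were such tiles. Of the 2236 bins, 192 belonged to tiles rich in C1ql2 and Tcf7l2. The 2 sides thus differed in makeup, and its part in the ratios over all 2236 bins was not tested.

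Over all 2236 bins Gap43 stood at 479 CPM against 137, a log2 ratio of 1.81 [1.64, 1.98], Chac1 at 17.1 against 6.05 (1.49 [0.62, 2.39]) and Sox11 at 42.1 against 17.1 (1.30 [0.78, 1.83]), 3 of 7 members beside 9.56% of all genes. In the dorsal tiles alone Gap43 was 61.4 CPM against 66.4 (-0.10) and Sox11 stood at 25.7 CPM, a log2 ratio of 0.80, and Jun was the 1 of 7 past 2-fold beside 12.2%, at 187 CPM against 89.1, a log2 ratio of 1.07. Of the 728 Gap43 UMIs of the full area, 43 lay in the dorsal tiles. Atf3 had 10 UMIs (6.58 CPM) against 7 (1.93 CPM), too few to be tested. Choroid plexus markers stood at 2817 CPM against 217 over the full area, and in the dorsal tiles neuronal markers stood at 3708 CPM against 9298 and microglia markers at 1106 against 305 with 7 of 7 past 2-fold, and their part was not tested. Of the regeneration-associated list 4 of 27 tested genes were higher and 5 lower over all 2236 bins and 3 of 25 higher and 3 lower in the dorsal tiles, and of the stress-response list 3 of 24 were higher over all bins and 4 of 23 higher and 2 lower in the dorsal tiles. The p53 list had 3 of 18 and then 4 higher and 2 lower of 17, and the AP-1 list 2 of 17 higher and then 1 higher and 3 lower of 17. Of all genes 2.3% were at least 2-fold lower over all bins and 3.86% in the dorsal tiles. Bdnf, the neurotrophin, stood at a log2 ratio of -1.99 over all bins and -1.32 in the dorsal tiles, whereas Ecel1 stood at 1.73 over all bins and had 0 UMIs in the dorsal tiles. Nupr1 stood at 1.41 and Slc7a11 at 1.37 over all bins.

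Bins of the lesion zone were sorted by cell type markers to check the neuronal name of the genes. Each bin was thinned to 300 UMIs, which 7008 of 8642 bins at 3 days and 9151 of 13547 at 28 days reached, and bins with at least 1 UMI of a marker list were compared with bins without. At 3 days Atf3 had 60 UMIs in bins with a neuronal marker (70.3 CPM) and 52 in bins without (41.6 CPM), a log2 ratio of 0.75 [0.20, 1.32]. Sprr1a had 16 UMIs with and 6 without (1.89 [0.54, 3.61]), Chac1 9 and 3 (1.99 [0.13, 4.66]), Gap43 298 and 300 (0.54 [0.30, 0.78]) and Cdkn1a 105 and 114 (0.43 [0.03, 0.83]). In bins with astrocyte markers Atf3 (-1.07), Cdkn1a (-0.89) and Sprr1a (-1.63) were lower, and bins with oligodendrocyte markers gave -1.10 for Atf3, -2.08 for Sprr1a and -1.04 for Sox11. With microglia and macrophage markers Atf3 stood at 54.0 CPM and without at 52.7, a log2 ratio of 0.04 [-0.54, 0.60].

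At 28 days Atf3 was higher in bins with phagocyte markers, and the change between the sections was not itself tested. It had 157 UMIs in bins with a microglia or macrophage marker (83.7 CPM) and 24 in bins without (27.6 CPM), a log2 ratio of 1.58 [0.98, 2.29], and in bins with a neuronal marker it stood at 55.4 CPM against 75.9 (-0.45 [-0.90, -0.01]). Cdkn1a likewise stood at 51.7 CPM with and 21.8 without phagocyte markers (1.22 [0.53, 2.04]). Sprr1a, in contrast, had all 15 of its UMIs in bins with a neuronal marker and 0 without, Chac1 had 28 and 11 (1.39 [0.37, 2.58]), and Gap43 stood at 302 against 172 CPM (0.81 [0.58, 1.05]). Of the 36 pairs of member and list shown, intervals lay beyond 0 for 5 above and 8 below at 3 days and for 7 above and 3 below at 28 days. In perilesional cortex 1 and 2 of 36 did, so that no cell type could be named there at this depth.

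**Figure D5:**
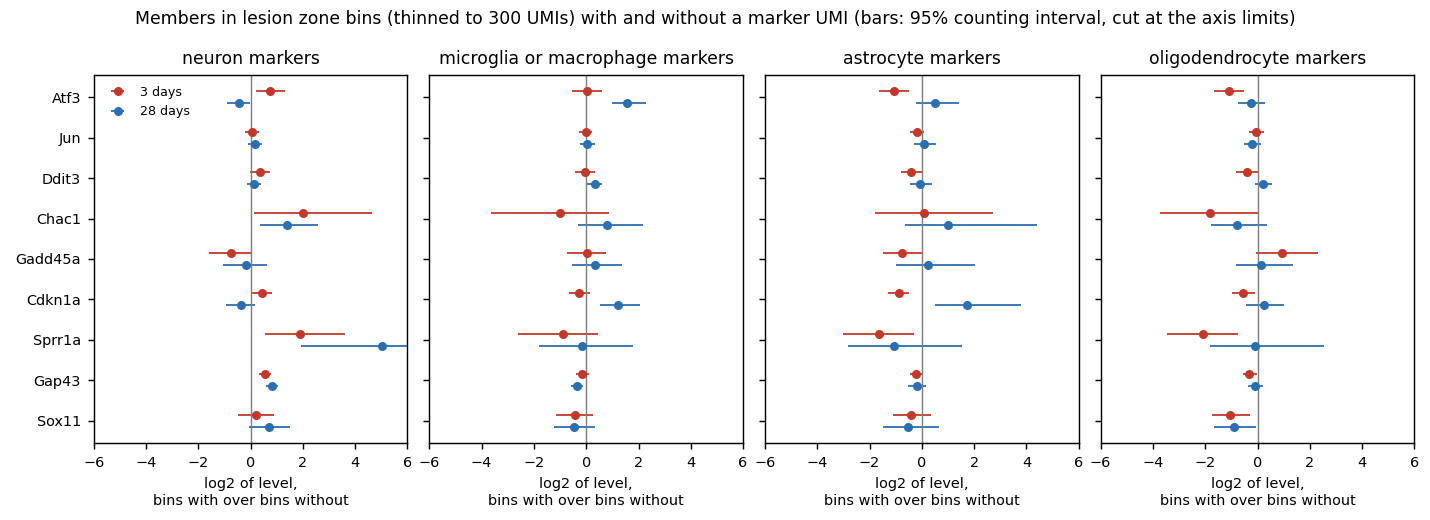
Log2 ratio of each member's level in lesion zone bins with over without a UMI of 4 marker lists (neuron, microglia and macrophage, astrocyte, oligodendrocyte), bins thinned to 300 UMIs, with exact 95% counting intervals, at 3 days (red) and 28 days (blue). Atf3 lies above 0 in the neuronal panel at 3 days (0.75) and in the microglia and macrophage panel at 28 days (1.58).

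Over blocks of 16 by 16 bins, 476 at 3 days and 403 at 28 days, the members formed no single pattern. As a description without a test, since blocks share a library and neighbour each other, the Spearman coefficient of Atf3 with Jun was 0.52 and 0.33, with Cdkn1a 0.43 and 0.26 and with Ddit3 0.11 and 0.35. Ddit3 and Chac1, which share an inducer, had coefficients of 0.07 and 0.06, and Cdkn1a and Gap43 were opposed at -0.39 and -0.32. Among 11427 genes with enough UMIs in both sections, those with a pattern most like Atf3 were Mpeg1 (mean coefficient 0.51), Msn (0.50) and Lgals3 (0.50), the last of which helped to draw the zone. Gap43 was most like Bex2 (0.76), Gprasp1 (0.75) and Zwint (0.75), and no other member had a gene at 0.5 or above.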

How the data were processed

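The deposited matrices hold whole UMI counts per gene and bin of 16 µm, not normalized. The authors made them with Space Ranger (4.0.1 in the matrix header) on build mm10 per the labels, 1 section per time point. Bins under 100 UMIs were left out. Bins were joined into tiles of 64 µm, and region marker levels over 5 by 5 tiles set each tile's region at a score of at least 0.25. The lesion zone took tiles whose summed share of 6 phagocyte genes exceeded the 99th percentile of opposite-side tiles, in patches of at least 25 tiles. The injured side was array column under 130 at 3 days and under 240 at 28 days. UMIs were summed per area, and log2 ratios of CPM used a pseudocount of 0.5 UMI and exact conditional binomial 95% intervals. No p-value was computed, and a gene counted as tested with at least 20 UMIs over both areas and as past 2-fold by its ratio, while a count of 0 was given the limit of 3 counts. PCR duplicates were removed through UMIs by the authors, and neighbouring bins are not independent. Of each related list up to 4 genes past 2-fold with at least 50 UMIs and an interval beyond 0 were named by size, and up to 3 genes alike in pattern were named per member where the mean Spearman coefficient reached 0.5 among genes with at least 500 UMIs in each section. Not every gene that this rule names is reported here. The members, lists, regional tests and side borders were chosen with earlier results of these data known. The calculation of the ratios was tested on simulated counts. Python 3.11.15 with numpy 2.4.6, scipy 1.17.1, pandas 2.3.3 and matplotlib 3.10.9, and R 4.3.3 with edgeR 4.0.16 for an alternative scaling, were used. Depth limits a member with few UMIs most, as the intervals show.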

Additional observations from a re-analysis of the deposited data

Results flagged for a closer look

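Gap43 in the lesion zone and Cdkn1a in perilesional cortex lay on opposite sides of 0 in the 3 day and 28 day sections, with both intervals away from 0, and the difference between the sections was not tested. Gap43 stood at a log2 ratio of 0.31 at 3 days and -0.31 at 28 days, and the 3 day value changes sign with the scaling, as given with it, and with the reference, to -0.27 [-0.34, -0.19] against all opposite cortex and -0.67 [-0.74, -0.60] against the whole opposite side. Cdkn1a stood at 1.68 at 3 days and -0.55 at 28 days.

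Tissue outside the zone, cortex, hippocampus and thalamus lay outside the areas of the design, and at 3 days it held more of 2 members on the injured side. Atf3 had 155 UMIs there (8.27 CPM) against 90 on the opposite side (3.33 CPM), a log2 ratio of 1.31 [0.93, 1.70], and Sprr1a had 30 UMIs (1.60 CPM) against 1 UMI (0.0370 CPM), a log2 ratio of 4.87 [2.84, 10.78]. At 28 days Atf3 in such tissue stood at -0.56 [-1.24, 0.07] and Sprr1a at -1.25 [-3.14, 0.13]. Microglia markers summed to 512 CPM against 349 at 3 days with 0 of 7 past 2-fold, and their part was not tested.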

How the results depend on the processing

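With 1 section per time point no replicate could be left out. No paired analysis was possible because each group holds 1 section. Of 116 planned and added recalculations of the counts of members past 2-fold and of marker associations, 100 stayed within 1.5 times the main count. Over all settings the count ran from 4 to 7 in the zone at 3 days and 4 to 5 at 28 days, 2 to 4 in perilesional cortex at both times, 4 to 6 and 0 to 4 in the hippocampus, and 0 to 4 and 0 to 2 in the thalamus. Without scaling to the total, the zone count at 3 days was 4 and the thalamus count at 3 days 4, as the median of all genes moved to -0.67 in the zone (0.21 in the main values, -0.14 with TMM) and to 0.47 in the thalamus. The zone at 28 days moved to -1.15, and the share of all genes higher and lower there to 10.9% and 57.1% (at 3 days 14.6% and 35.3%, with TMM 20.5% and 17.2%). The 95th percentile for the zone gave 2 members in perilesional cortex at 3 days, beside 8.26% of all genes higher. Thalamus gave 4 in relay tiles and 0 in midline tiles at 3 days, beside 3.69% and 1.92% of all genes higher. At 28 days it gave 2 with no gene minimum, beside 12.6%. Without zone tiles it gave 0 beside 2.22%, and in midline tiles 0 beside 0.961%. Hippocampus at 28 days gave 1 in dorsal tiles and 0 at the mirror position, beside 12.2% and 19.3% of all genes higher. The relay, midline and dorsal tiles, the mirrored positions, the whole opposite side as reference, and the C1ql2 and other-tissue comparisons, and the comparison of the hippocampus-score patch with opposite thalamus and with opposite C1ql2 tiles, were chosen after seeing the data. Marker associations in perilesional cortex with intervals beyond 0 went from 1 at 3 days to 10 unthinned, 2 at 500 UMIs and 0 as the mean of 20 thinnings, and from 2 at 28 days to 6, 5 and 1. Of values past 2-fold, or of marker associations beyond 0, those that changed sign were Chac1 at the mirrored hippocampus at 3 days (-0.56), Sox11 there at 28 days (-0.024), Gadd45a in the unscaled zone at 28 days (-0.13), Sox11 in perilesional cortex at 28 days against distant injured-side cortex (-0.53), Gap43 in the dorsal hippocampus at 28 days (-0.10), Gap43 with oligodendrocyte markers unthinned at 3 days (0.18) and Ddit3 with microglia markers at 500 UMIs at 28 days (-0.037). Ratios within 2-fold also changed sign, among them Ddit3 (-0.43 and -0.37 at 3 and 28 days), Cdkn1a at 28 days (-0.42) and Gap43 at 3 days (-0.58) in the unscaled zone. The cause was not tested. A region score of 0.40 left 32 hippocampus bins at 3 days and distant cortex 16 bins at 3 days, so neither was run.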

Other observations

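In the 28 day section 288 injured-side bins carried C1ql2 and Tcf7l2 above the level used at 3 days, and 20.5% of them lay in the lesion zone. The opposite side held no such bins, so whole opposite thalamus was the reference. Chac1 stood there at 69.0 CPM from 12 UMIs against 13.0 CPM in opposite thalamus, a log2 ratio of 2.46 [1.41, 3.28], and Ddit3 at 201 CPM against 94.03, a log2 ratio of 1.12 [0.56, 1.59]. Atf3 had 7 UMIs (40.3 CPM) against 8 (1.06 CPM), too few over both areas to be tested. Gap43 stood at 472 CPM against 686, a log2 ratio of -0.53 [-0.87, -0.23]. Of all genes 15.1% were at least 2-fold higher in these bins, microglia markers stood at 1007 CPM against 198 with 7 of 7 past 2-fold, and their part was not tested.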
